A study of Mus musculus with 18 samples.

Results

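The cell proliferation genes described here are 36 genes of the mitotic cell cycle, chosen by gene symbol from the 54752 genes of the RNA tables, and all 36 were also present among the 22523 genes of the ribosome footprint tables. By role they comprise 5 genes of G1 and of the entry into S phase, 10 genes of DNA replication and nucleotide supply, 12 regulators of G2 and mitosis, and 9 genes of the mitotic chromosomes and spindle.

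A dividing cell leaves G1 when cyclins of the D and E types activate their kinases and release the E2F factors, copies its DNA in S phase with the MCM helicase and the sliding clamp PCNA, and then divides under CDK1 and the A and B cyclins until the anaphase-promoting complex destroys those cyclins. Genes of S phase are largely controlled through E2F sites in their promoters, and genes of G2 and mitosis through the cell cycle homology region, known as CHR, together with CCAAT boxes. In the mouse cerebellum most divisions after birth are those of granule cell precursors in the external granular layer, which divide in response to Sonic hedgehog, depend on cyclins D1 and D2, and leave the cycle to become granule neurons by about the end of the third week.

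RNA sequencing and ribosome profiling were done on the cerebellum of mice aged 3 weeks (P21) of 3 genotypes, with 3 separate mice of each genotype in each assay and both sexes in use. Control mice were C57BL/6J (B6J), and the other genotypes were B6J.*Gtpbp1*-/- and B6J-*Gtpbp2*-/-, each lacking a GTPase that acts on stalled ribosomes. All 3 genotypes, the control included, carry the hypomorphic B6J mutation of n-Tr20, a tRNA gene for arginine with the anticodon UCU. B6J.*Gtpbp1*-/- is a congenic knockout line targeted at exons 3 and 4. B6J-*Gtpbp2*-/- mice carry the ENU-induced nmf205 null allele. Each footprint library came from 1 cerebellum, and RNA and footprints were labelled as separate batches, so that assay and batch cannot be told apart.

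Levels of one gene across libraries are given below as CPM, counts scaled to a common library total by TMM over the 9 libraries of an assay. Levels of different genes are compared as TPM, which also divides by transcript length, or as footprint CPM per kilobase of coding sequence. Differences between genotypes are log2 ratios with their standard error (SE) from edgeR's quasi-likelihood test, with p-values adjusted by Benjamini-Hochberg over all genes tested, and a gene passed at an adjusted p of at most 0.05. In these bulk samples, fewer cells of a type and less RNA per cell cannot be told apart.

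By CPM the RNA of *Gtpbp1* followed the labels, and that of *Gtpbp2* did not clearly do so. *Gtpbp1* RNA was 70.7, 77.6 and 66.5 CPM in the B6J libraries, 44.2, 41.7 and 43.8 CPM in B6J.*Gtpbp1*-/- and 58.8, 72.3 and 65.8 CPM in B6J-*Gtpbp2*-/-. All 3 B6J.*Gtpbp1*-/- libraries lay below the other 6 (log2 difference from B6J -0.73, SE 0.0818, adjusted p 5.94e-05). *Gtpbp2* RNA was 85.6, 73.8 and 87.8 CPM in B6J, 109, 101 and 104 CPM in B6J.*Gtpbp1*-/- and 65.6, 75.5 and 72.9 CPM in B6J-*Gtpbp2*-/-. The B6J-*Gtpbp2*-/- libraries overlapped B6J for this gene (log2 difference -0.22, adjusted p 0.19), whereas the B6J.*Gtpbp1*-/- libraries were all higher (0.34, adjusted p 0.0154). On the TPM scale, *Gtpbp1* was 43.5, 38.4 and 40.4 TPM in B6J and 34.5, 35.1 and 41.1 TPM in B6J.*Gtpbp1*-/-, which overlapped. *Gtpbp2* was 114, 91.7 and 99.0 TPM in B6J and 127, 145 and 151 TPM in B6J-*Gtpbp2*-/-, higher in all 3 libraries of its own mutant and so against the label on that scale. In footprints *Gtpbp1* was 73.9, 116 and 85.6 CPM in B6J and 31.7, 25.4 and 36.1 CPM in B6J.*Gtpbp1*-/-, and *Gtpbp2* was 44.9, 35.995 and 38.8 CPM in B6J and 28.9, 26.2 and 7.51 CPM in B6J-*Gtpbp2*-/-. In both cases the 3 libraries of the targeted genotype lay below the B6J libraries. The difference passed for *Gtpbp1* (log2 difference -1.565, adjusted p 0.00676) but not for *Gtpbp2* (-0.968, adjusted p 0.321).

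Some libraries stood apart before any comparison. B6J replicates 1 and 3 of the RNA assay had counts for 26209 and 26118 genes, against 29555 to 31306 genes in the other 7 RNA libraries. The Y-linked gene *Ddx3y* marked B6J replicate 2 and B6J.*Gtpbp1*-/- replicates 1 and 2 as male in RNA, and B6J replicates 1 and 2 and B6J.*Gtpbp1*-/- replicate 1 as male in footprints. All B6J-*Gtpbp2*-/- libraries of both assays were female by this gene, so that sex was unevenly spread over the genotypes.

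In the control cerebellum the proliferation genes were mostly weakly expressed at this age. By mean TPM in B6J, 7 of the 36 members reached at least 10 TPM, 23 lay from 1 to under 10 TPM and 6 lay under 1 TPM. *Pcna*, the clamp that holds DNA polymerase on its template, had the highest mean level at 70.8 TPM. Next by TPM came the G1/S cyclin *Ccne2* (26.1), cyclin D1 (*Ccnd1*, 21.2), the large subunit of ribonucleotide reductase (*Rrm1*, 21.04), the helicase subunit *Mcm7* (20.6), cyclin E1 (*Ccne1*, 13.5) and the helicase subunit *Mcm4* (10.3). The 6 members under 1 TPM all act in G2 or mitosis: the kinetochore motor *Cenpe* (0.516), cyclin B1 (*Ccnb1*, 0.606), the checkpoint kinase *Bub1* (0.741), the proliferation antigen *Mki67* (0.817), polo-like kinase 1 (*Plk1*, 0.866) and survivin (*Birc5*, 0.937). *Ccnd2*, the second cyclin D of granule cell precursors, stood at 5.71 TPM in B6J, below *Ccnd1*. The order of *Pcna* over all other members held in each B6J library, while *Ccnd1*, *Rrm1* and *Mcm7* had overlapping TPM values there.

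Summed over all 36 members, RNA was 248, 254 and 253 TPM in B6J, 316, 346 and 393 TPM in B6J.*Gtpbp1*-/- and 302, 379 and 362 TPM in B6J-*Gtpbp2*-/-. Every mutant library lay above every B6J library in this sum. As CPM the sum was 287, 298 and 287 in B6J, 352, 413 and 445 in B6J.*Gtpbp1*-/- and 329, 435 and 421 in B6J-*Gtpbp2*-/-, also without overlap. Much of this rise by CPM came from *Ccnd2*, with means of 18.3, 72.8 and 69.9 CPM in the 3 genotypes. *Ccnd2* was 53.3 CPM in B6J-*Gtpbp2*-/- replicate 1 and 18.5 CPM in B6J replicate 2. Without this gene that mutant library would fall within the B6J range. The TPM scale lifts many genes in the mutants, since 43.9%, 45.2% and 43.6% of all genes tested were above every B6J library in the B6J.*Gtpbp1*-/- replicates by TPM, against 32.3%, 32.7% and 30.7% by CPM. DNA replication genes summed to 138, 150 and 141 TPM in B6J, 196, 197 and 215 TPM in B6J.*Gtpbp1*-/- and 176, 206 and 210 TPM in B6J-*Gtpbp2*-/-, again with no overlap. By CPM the means of that sum lay closer, at 146 CPM in B6J, 187 CPM in B6J.*Gtpbp1*-/- and 179 CPM in B6J-*Gtpbp2*-/-. Genes of the mitotic chromosomes and spindle summed to 13.3, 13.1 and 15.6 TPM in B6J, 14.4, 22.8 and 24.4 TPM in B6J.*Gtpbp1*-/- and 13.3, 24.3 and 22.4 TPM in B6J-*Gtpbp2*-/-. In that role, by TPM, replicate 1 of each mutant fell within the B6J range and the other 2 mutant replicates lay above it.

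**Figure D1:**
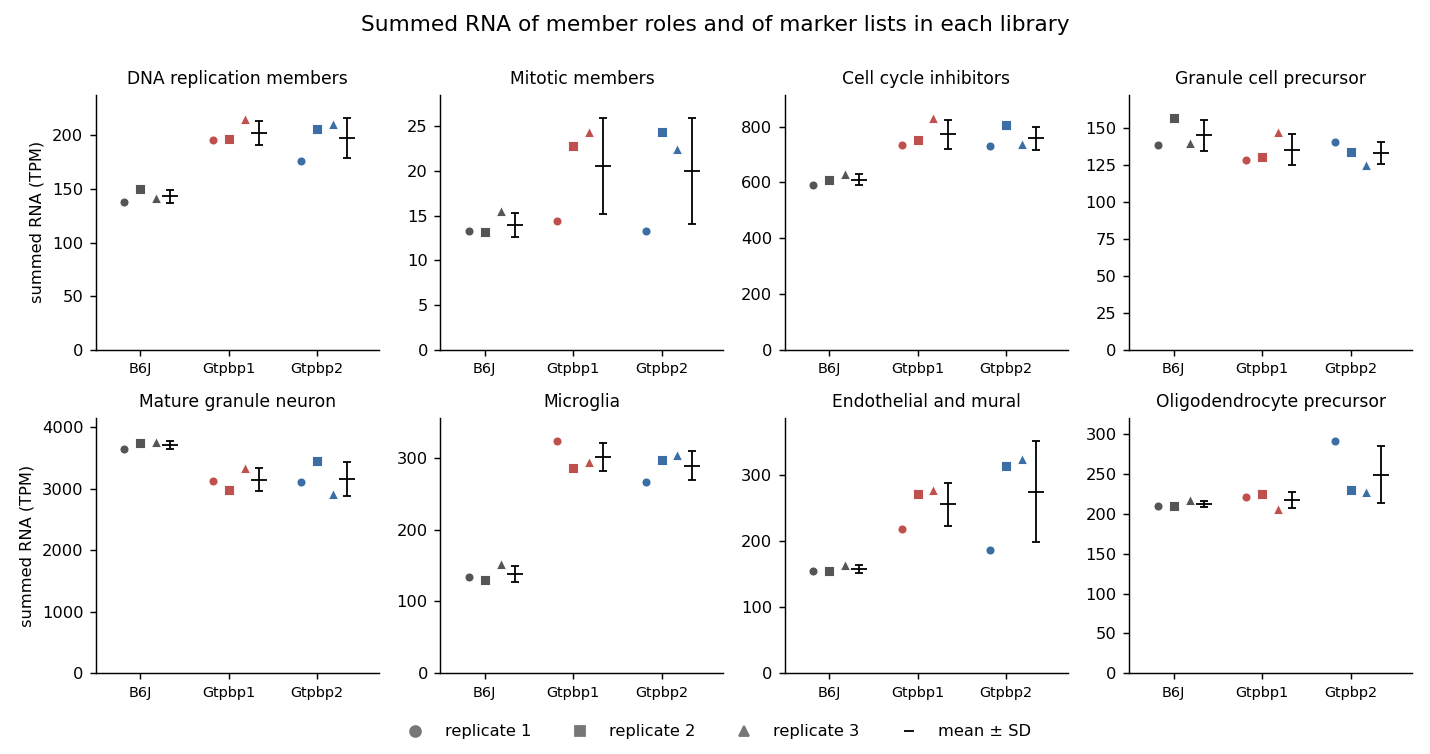
Summed RNA level (TPM) of the replication and mitotic members, of cell cycle inhibitors and of markers of 5 cell types in every library, grouped by genotype (Gtpbp1 and Gtpbp2 name the mutants), with the mean and SD beside the points. The sum of the DNA replication genes lay at 138 to 150 TPM in B6J and at 176 to 215 TPM in the mutants.

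In B6J.*Gtpbp1*-/- RNA, genes from every stage of the cycle were higher than in B6J. DNA replication genes contributed most of those that passed, with 4 subunits of the MCM helicase among them, and cyclin D2 changed most. No member fell past the threshold. The G1 genes went in different directions, since *Ccnd2* rose while *Ccnd1* and *Ccne1* were on the lower side of B6J. All 36 members were tested and 9 passed, all higher, against 13.8% of the 24577 genes tested that passed in either direction and 5.90% that passed as higher. By DESeq2, 11 members passed, among them *Mcm2* as higher and *Ccne1* as lower, beside 4284 of the 24577 genes tested. Another 5 members had an unadjusted p under 0.05, which makes 14 of 36, beside 6464 of all genes tested. Of the members, 33 had a positive log2 difference, and the members' median was 0.54 against 0.03 for all genes tested. The libraries of the genotypes did not overlap for 16 members, 15 higher and 1 lower, and for 4035 and 3810 of all genes tested.

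The count in B6J.*Gtpbp1*-/- RNA depended on single libraries, and so did the calls over all genes tested. Those calls were 3398 with all libraries. They ran from 1890 without B6J.*Gtpbp1*-/- replicate 2 to 3798 without B6J replicate 3. *Ccnd2*, *Mcm6* and *Mcm7* were the members that passed without B6J.*Gtpbp1*-/- replicate 3, a count of 3. Without B6J.*Gtpbp1*-/- replicate 2 it was 5, these 3 genes with *Cenpe* and *Mcm3*, and without replicate 1 it was 8, with *Mki67* and *Top2a* gained and *Mcm3*, *Mcm5* and *Tyms* lost. It was 6 without B6J replicate 1 (*Ccna2*, *Foxm1* and *Tyms* lost), 5 without B6J replicate 2 (*Mcm3*, *Mcm5*, *Ccna2* and *Foxm1* lost) and 10 without B6J replicate 3 (*Mcm5* and *Tyms* lost, *Mcm2*, *Rrm2* and *Ccne1* gained, the last as lower). Without B6J replicates 1 and 3, the libraries with the fewest genes detected, it was 2 (*Ccnd2* and *Mcm6*), a setting chosen after seeing the data in which the lone B6J library is taken to vary like the mutants.

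Cyclin D2, which drives granule cell precursors through G1, rose most among the members in both mutants. *Ccnd2* RNA was 23.0, 18.5 and 13.5 CPM in B6J, 58.0, 75.6 and 84.9 CPM in B6J.*Gtpbp1*-/- and 53.3, 79.9 and 76.4 CPM in B6J-*Gtpbp2*-/-. Every mutant library stood far above every B6J library, and the mutants overlapped each other. The group means were 18.3 ± 4.75 (SD, n = 3), 72.8 ± 13.7 (SD, n = 3) and 69.9 ± 14.5 (SD, n = 3) CPM. The log2 difference from B6J was 1.99 in B6J.*Gtpbp1*-/- (SE 0.222, adjusted p 0.00136, higher in 3 of 3) and 1.93 in B6J-*Gtpbp2*-/- (SE 0.225, adjusted p 0.0025, higher in 3 of 3). *Ccnd2* passed in all 16 alternatives run for each mutant in RNA, with log2 differences from 1.80 to 2.18 in B6J.*Gtpbp1*-/- and from 1.75 to 2.13 in B6J-*Gtpbp2*-/-. Most of its level came from the coding transcript Ccnd2-201, at 6.42, 5.05 and 3.71 TPM in B6J, 17.5, 23.1 and 26.0 TPM in B6J.*Gtpbp1*-/- and 16.0, 24.3 and 23.1 TPM in B6J-*Gtpbp2*-/-. An antisense gene, *9330179D12Rik*, shares 368 of the 9409 exon bases of *Ccnd2* and was itself higher in both mutants (log2 difference 2.46 and 2.55), so that reads on the shared bases cannot be assigned with certainty.

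The other genes of G1 and G1/S entry did not follow *Ccnd2*. *Ccnd1* RNA, for the other D cyclin of these precursors, was 35.4, 40.9 and 42.2 CPM in B6J, 30.6, 41.5 and 34.9 CPM in B6J.*Gtpbp1*-/- and 28.6, 39.0 and 44.2 CPM in B6J-*Gtpbp2*-/-. The 3 genotypes overlapped, and *Ccnd1* passed in neither mutant (log2 difference -0.15, adjusted p 0.454, and -0.09, adjusted p 0.778). Cyclin E1, which activates CDK2 at the start of S phase, had *Ccne1* levels of 10.4, 11.4 and 9.95 CPM in B6J, 8.10, 7.36 and 7.87 CPM in B6J.*Gtpbp1*-/- and 8.32, 8.11 and 8.76 CPM in B6J-*Gtpbp2*-/-. All mutant libraries lay below all B6J libraries for *Ccne1*, with a log2 difference of -0.45 (adjusted p 0.0502) and -0.34 (adjusted p 0.177), neither past the threshold, although *Ccne1* passed as lower in B6J.*Gtpbp1*-/- in 5 of 16 alternatives, among them the fit without B6J replicate 3. Log2 differences of *Ccne2* and of the transcription factor gene *E2f1* in B6J.*Gtpbp1*-/- were 0.02 and 0.03.

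Among DNA replication genes, the MCM helicase was the group with most members past the threshold in B6J.*Gtpbp1*-/-, at 5 of 10 for the role as a whole. *Mcm6* RNA was 6.35, 6.87 and 4.32 CPM in B6J, 10.1, 13.8 and 12.8 CPM in B6J.*Gtpbp1*-/- and 6.69, 12.1 and 14.3 CPM in B6J-*Gtpbp2*-/-. Replicate 1 of B6J-*Gtpbp2*-/- sat inside the B6J range, and the other 5 mutant libraries lay above it. The log2 difference of *Mcm6* was 1.06 in B6J.*Gtpbp1*-/- (SE 0.193, adjusted p 0.00259, higher in 3 of 3) and 0.91 in B6J-*Gtpbp2*-/- (adjusted p 0.0694, higher in 2 of 3). *Mcm7* RNA was 16.5, 17.6 and 16.3 CPM in B6J, 24.9, 22.2 and 27.7 CPM in B6J.*Gtpbp1*-/- and 25.5, 25.5 and 26.6 CPM in B6J-*Gtpbp2*-/-. No mutant library came within the narrow B6J range of *Mcm7*, which rose by 0.56 (SE 0.111, adjusted p 0.00425) and 0.61 (SE 0.101, adjusted p 0.00388). *Mcm3* RNA was 3.53, 3.10 and 2.99 CPM in B6J, 6.10, 4.64 and 6.68 CPM in B6J.*Gtpbp1*-/- and 4.43, 6.41 and 7.22 CPM in B6J-*Gtpbp2*-/-. Here too all 6 mutant libraries were above B6J, and *Mcm3* rose by 0.85 (SE 0.212, adjusted p 0.0174) and 0.90 (SE 0.227, adjusted p 0.0321).

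*Mcm5* and *Tyms* passed in B6J.*Gtpbp1*-/- alone. *Mcm5* RNA was 8.13, 7.49 and 5.90 CPM in B6J, 10.6, 10.8 and 10.5 CPM in B6J.*Gtpbp1*-/- and 8.02, 9.92 and 11.2 CPM in B6J-*Gtpbp2*-/-. The B6J.*Gtpbp1*-/- libraries were close together and above B6J (log2 difference 0.56, SE 0.157, adjusted p 0.0320), while B6J-*Gtpbp2*-/- replicate 1 lay within the B6J range (0.43, adjusted p 0.192). *Tyms*, which encodes the enzyme that makes thymidylate, was at 2.93, 3.75 and 2.64 CPM in B6J, 4.54, 5.44 and 5.37 CPM in B6J.*Gtpbp1*-/- and 3.74, 5.35 and 4.54 CPM in B6J-*Gtpbp2*-/-. Its log2 difference was 0.72 in B6J.*Gtpbp1*-/- (SE 0.217, adjusted p 0.0439, higher in 3 of 3) and 0.54 in B6J-*Gtpbp2*-/- (adjusted p 0.190, higher in 2 of 3). *Pcna*, the most abundant member, was at 44.4, 45.9 and 41.4 CPM in B6J, 51.4, 50.4 and 52.9 CPM in B6J.*Gtpbp1*-/- and 45.2, 53.4 and 53.3 CPM in B6J-*Gtpbp2*-/-. Only B6J-*Gtpbp2*-/- replicate 1 overlapped B6J for *Pcna*, and the differences of 0.23 (adjusted p 0.0838) and 0.20 (adjusted p 0.234) did not pass. The remaining replication genes of B6J.*Gtpbp1*-/- had log2 differences of 0.46 for *Mcm2*, 0.28 for *Mcm4*, 0.09 for *Rrm1* and 0.14 for *Rrm2*, the small subunit of ribonucleotide reductase, and none passed.

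Of the 12 regulators of G2 and mitosis, 2 passed in B6J.*Gtpbp1*-/-, and 11 were on the higher side. Cyclin A2 acts in S phase and at the entry into mitosis, and its gene *Ccna2* was at 2.06, 3.19 and 3.82 CPM in B6J, 5.16, 6.82 and 6.13 CPM in B6J.*Gtpbp1*-/- and 4.68, 6.91 and 5.78 CPM in B6J-*Gtpbp2*-/-. Every mutant library was above every B6J library, and *Ccna2* rose by 0.99 in B6J.*Gtpbp1*-/- (SE 0.245, adjusted p 0.0164) and by 0.93 in B6J-*Gtpbp2*-/- (SE 0.260, adjusted p 0.0494). *Foxm1* encodes the transcription factor that switches on many mitotic genes, and was at 1.25, 1.61 and 1.51 CPM in B6J, 2.22, 2.95 and 3.26 CPM in B6J.*Gtpbp1*-/- and 2.05, 2.84 and 2.23 CPM in B6J-*Gtpbp2*-/-. The groups did not overlap, and *Foxm1* passed in B6J.*Gtpbp1*-/- (0.94, SE 0.276, adjusted p 0.0388) but not in B6J-*Gtpbp2*-/- (0.70, adjusted p 0.152). The mitotic kinase genes *Cdk1* (0.70, adjusted p 0.225) and *Plk1* (0.87, adjusted p 0.0922), the cyclin genes *Ccnb1* (0.92, adjusted p 0.341) and *Ccnb2* (0.54, adjusted p 0.217), and the checkpoint gene *Bub1* (1.11, adjusted p 0.308) were higher without passing in B6J.*Gtpbp1*-/-. *Aurka*, for a kinase of the spindle poles, was the member of this role with a negative log2 difference (-0.30, adjusted p 0.613). The rest of the role did not pass either, with log2 differences of 0.54 for *Aurkb*, 0.49 for *Bub1b*, 0.19 for *Ube2c* and 0.14 for *Cdc20*, which activates the anaphase-promoting complex.

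In the mitotic chromosome and spindle role only *Cenpe*, for the motor that brings chromosomes to the middle of the spindle, passed in either mutant. *Cenpe* RNA was 2.06, 1.77 and 1.55 CPM in B6J, 3.47, 3.59 and 4.33 CPM in B6J.*Gtpbp1*-/- and 3.44, 4.51 and 4.01 CPM in B6J-*Gtpbp2*-/-. The lowest mutant library stood well above the highest B6J library, and *Cenpe* rose by 1.08 (SE 0.245, adjusted p 0.0103) and 1.15 (SE 0.241, adjusted p 0.0138). *Mki67* RNA, whose protein coats mitotic chromosomes, was 4.76, 2.69 and 3.61 CPM in B6J, 2.77, 8.49 and 9.65 CPM in B6J.*Gtpbp1*-/- and 3.76, 9.82 and 6.81 CPM in B6J-*Gtpbp2*-/-. Replicate 1 of each mutant was within the B6J range for *Mki67* while the other 4 mutant libraries were higher, and the differences of 0.91 (adjusted p 0.252) and 0.88 (adjusted p 0.149) did not pass. *Top2a*, for the topoisomerase that untangles sister chromatids, was at 4.18, 2.91 and 2.34 CPM in B6J, 2.59, 6.84 and 7.46 CPM in B6J.*Gtpbp1*-/- and 2.24, 6.96 and 5.08 CPM in B6J-*Gtpbp2*-/-. The same replicates were low as for *Mki67*, and *Top2a* passed in neither mutant (0.83, adjusted p 0.197, and 0.59, adjusted p 0.417). Without B6J.*Gtpbp1*-/- replicate 1, *Mki67* and *Top2a* both passed in that mutant. The other members of this role, *Birc5*, *Kif11*, *Kif20a*, *Cenpf*, *Tpx2* and *Nusap1*, had log2 differences from 0.22 (*Kif20a*) to 0.56 (*Kif11*) in B6J.*Gtpbp1*-/- RNA and did not pass.

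**Figure D2:**
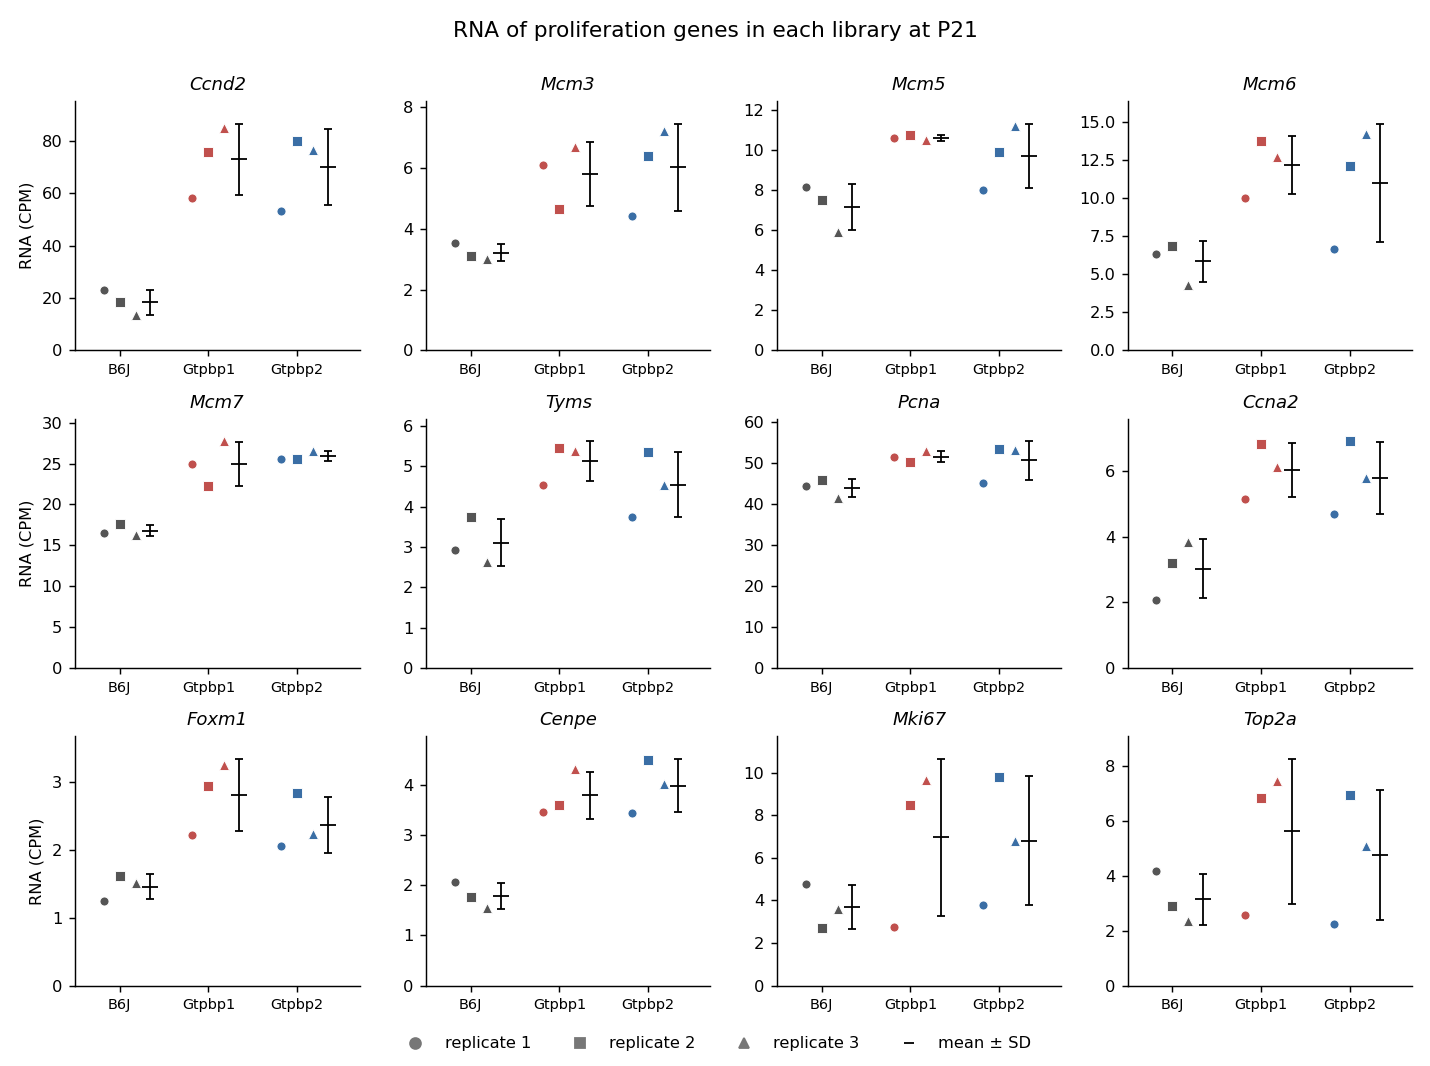
RNA level (CPM after TMM scaling) of members in each of the 9 RNA libraries, grouped by genotype, with the mean and SD beside the points. *Ccnd2* lay at 13.5 to 23.0 CPM in B6J and at 53.3 to 84.9 CPM in the mutants, whereas *Mki67* and *Top2a* in replicate 1 of each mutant lay below the highest B6J library.

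Replicate 1 of each mutant was low over the members as a whole, not in *Mki67* and *Top2a* alone. The number of members above every B6J library in RNA CPM was 16, 27 and 29 of 36 in the 3 B6J.*Gtpbp1*-/- replicates and 12, 30 and 27 of 36 in the 3 B6J-*Gtpbp2*-/- replicates. Of all genes tested, 32.3%, 32.7% and 30.7% lay above every B6J library in the B6J.*Gtpbp1*-/- replicates and 31.3%, 30.0% and 32.4% in the B6J-*Gtpbp2*-/- replicates.

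In B6J-*Gtpbp2*-/- RNA the roles of replication and mitosis were on the higher side, with fewer members past the threshold. The G1 genes again went in different directions. Cyclin D2, helicase subunits MCM3 and MCM7, cyclin A2 and the kinetochore motor CENP-E had the genes that rose. No member fell past the threshold. All 12 regulators of G2 and mitosis were on the higher side. Of the 36 members tested, 5 passed, all higher, against 8.63% of the 24859 genes tested that passed in either direction and 3.61% as higher. By DESeq2, 8 members passed, with *Mcm6*, *Bub1b* and *Mki67* gained, beside 3409 of the 24859 genes tested. An unadjusted p under 0.05 was found for 15 members and for 5585 of all genes tested. The members' median log2 difference was 0.46 against 0.03 for all genes tested, and 33 of 36 were positive. By role, 1 of 5 G1 genes, 2 of 10 replication genes, 1 of 12 regulators and 1 of 9 chromosome and spindle genes passed, with medians of 0.05, 0.37, 0.61 and 0.49. The genotypes did not overlap for 7 members on the higher side and 1 on the lower side, and for 3709 and 3390 of all genes tested. *Bub1b*, for a protein of the spindle checkpoint, had a log2 difference of 0.78 (adjusted p 0.0963), and *Ccnb1* one of 1.13 (adjusted p 0.164). Over all 36 members the log2 differences ran from -0.34 (*Ccne1*) to 1.93 (*Ccnd2*). Without B6J-*Gtpbp2*-/- replicate 2 the count was 2 (*Ccnd2* and *Mcm7*), without replicate 3 it was 3 (the same with *Bub1b*), and without replicate 1 it was 8, with *Mcm4*, *Mcm6* and *Mki67* gained. It was 3 without B6J replicate 1 and 4 without B6J replicate 3, *Mcm3* lost in both and *Ccna2* in the first, and 2 (*Ccnd2* and *Mcm7*) without B6J replicate 2. The count was 2 (*Ccnd2* and *Mcm7*) with sex as a covariate, in a fit in which 1071 of 24859 genes passed. B6J replicate 2 was the only male library in that fit, so sex cannot be told apart there from that library. Calls over all genes tested, 2146 with all libraries, also moved when single libraries were left out. They ran from 953 without B6J replicate 1 to 2357 without B6J-*Gtpbp2*-/- replicate 1.

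**Figure D3:**
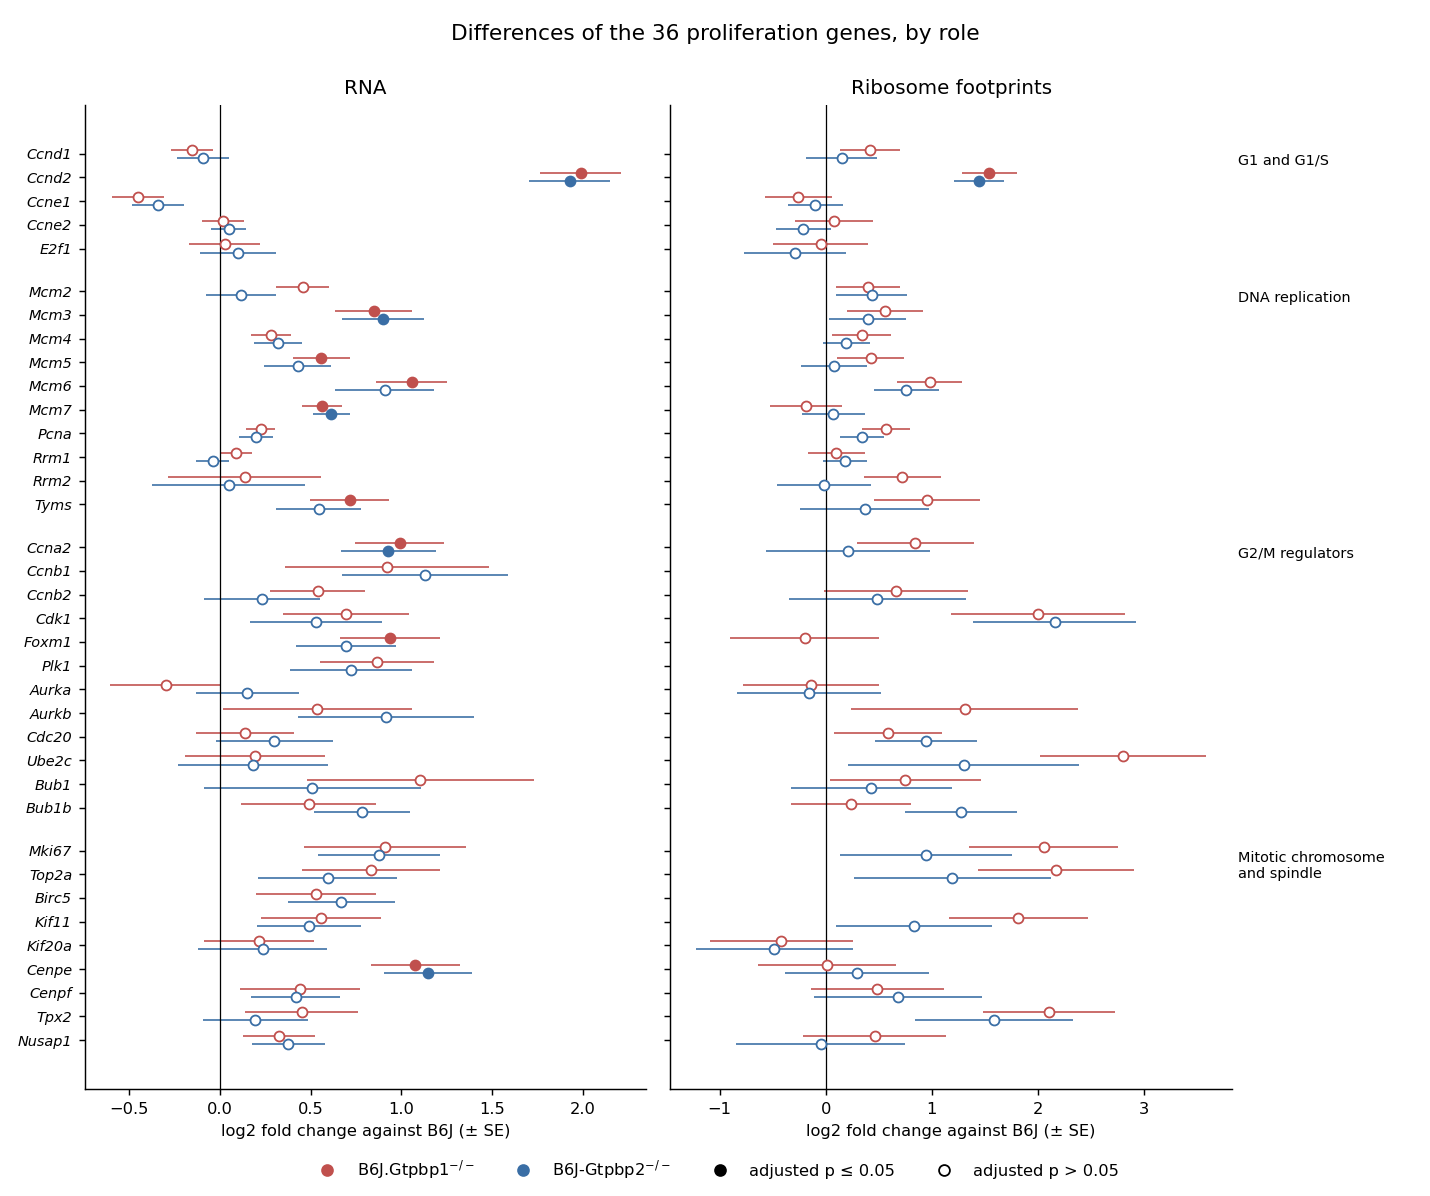
Log2 difference of each member from B6J, by role, for RNA and footprints in each mutant, with the SE as bars and genes past an adjusted p of 0.05 filled, and with *Ccnb1*, *Plk1* and *Birc5* left out of the footprints for their few counts in B6J. The RNA medians over the members were 0.54 in B6J.*Gtpbp1*-/- and 0.46 in B6J-*Gtpbp2*-/-, and both comparisons use the same B6J libraries.

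Both mutants were compared with the same 3 B6J libraries, so a shift in those libraries moves both sets of differences at once. The direct test between the mutants found no member to differ in RNA. Of 36 members, 0 passed by edgeR's quasi-likelihood test, 0 had an unadjusted p under 0.05 and 0 passed by DESeq2. Of the 25190 genes tested, 0.0595% passed by edgeR's test, and 46 genes passed by DESeq2. The members' median log2 ratio of B6J.*Gtpbp1*-/- to B6J-*Gtpbp2*-/- was 0.03 against 0.00 for all genes tested. Genes that passed in B6J.*Gtpbp1*-/- alone had ratios of 0.15 for *Mcm6*, 0.13 for *Mcm5*, 0.24 for *Foxm1* and 0.17 for *Tyms*, each with an adjusted p of 1, so that they were not shown to differ between the mutants.

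Ribosome footprints on the members were sparse, and cyclin D2 again changed most clearly. *Ccnd2* footprints rose in B6J.*Gtpbp1*-/-, and some genes of the chromosomes and spindle had large positive differences that rested on few counts in B6J. *Mki67*, *Top2a*, *Kif11* and *Tpx2* had log2 differences in that mutant of 2.06, 2.17, 1.81 and 2.11, while *Cenpf* (0.49), *Nusap1* (0.46), *Cenpe* (0.01) and *Kif20a* (-0.42) lay nearer to or below 0. Members together took 0.0218%, 0.0229% and 0.0284% of the counted footprints in B6J, 0.0408%, 0.0355% and 0.0288% of them in B6J.*Gtpbp1*-/- and 0.0337%, 0.0348% and 0.0275% in B6J-*Gtpbp2*-/-. Replicate 3 had the lowest share of each mutant and the highest of B6J, and B6J-*Gtpbp2*-/- replicate 3 lay below it. In B6J.*Gtpbp1*-/-, 35 members had enough counts to be tested (*Ccnb1* did not), and 1 passed, *Ccnd2*, as higher, against 0.745% of the 13956 genes tested that passed in either direction and 0.573% as higher. By DESeq2, 2 members passed, *Ccnd2* and *Ube2c*, beside 406 of the 13956 genes tested. An unadjusted p under 0.05 was found for 11 members and for 1763 of all genes tested. Of the 35, 29 had a positive log2 difference, and their median was 0.57 against 0.01 for all genes tested. The genotypes did not overlap for 12 of them, all higher, and for 1241 genes on the higher and 1272 on the lower side of all those tested.

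*Ccnd2* footprints were 12.4, 13.6 and 12.2 CPM in B6J, 39.0, 25.7 and 46.6 CPM in B6J.*Gtpbp1*-/- and 30.1, 44.7 and 29.6 CPM in B6J-*Gtpbp2*-/-. The 3 B6J libraries lay close together and every mutant library was well above them. The log2 difference was 1.54 in B6J.*Gtpbp1*-/- (SE 0.259, adjusted p 0.0157, higher in 3 of 3) and 1.44 in B6J-*Gtpbp2*-/- (SE 0.237, adjusted p 0.00441, higher in 3 of 3). Without B6J.*Gtpbp1*-/- replicate 1, without B6J replicate 1 or without B6J replicate 2, 0 members passed in B6J.*Gtpbp1*-/-. In those fits 37, 22 and 41 of all genes tested passed, against 104 with all libraries. Per kilobase of coding sequence, mean *Ccnd2* footprint density was 13.7 CPM per kilobase in B6J, 40.1 CPM per kilobase in B6J.*Gtpbp1*-/- and 37.6 CPM per kilobase in B6J-*Gtpbp2*-/-, against 32.2 for *Ccnd1* and 44.0 for *Pcna* in B6J. By this density *Ccnd2* lay below *Ccnd1* in each B6J library, where *Ccnd1* ranged from 20.8 to 49.6 CPM per kilobase. In B6J.*Gtpbp1*-/- the mean density of *Ccnd1* was 43.1 and in B6J-*Gtpbp2*-/- 36.3 CPM per kilobase, and both genes overlapped in each mutant.

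The helicase genes that rose in RNA did not pass in footprints. *Mcm6* footprints were 6.96, 7.46 and 8.18 CPM in B6J, 18.3, 16.1 and 10.01 CPM in B6J.*Gtpbp1*-/- and 12.02, 17.2 and 9.82 CPM in B6J-*Gtpbp2*-/-. All mutant libraries were above B6J, and the log2 differences were 0.98 (adjusted p 0.173) and 0.76 (adjusted p 0.216), short of the threshold. *Mcm7* footprints were 12.1, 7.68 and 8.66 CPM in B6J, 11.4, 5.83 and 7.63 CPM in B6J.*Gtpbp1*-/- and 10.6, 8.99 and 10.1 CPM in B6J-*Gtpbp2*-/-. The genotypes overlapped for *Mcm7*, with differences of -0.19 (adjusted p 0.88) and 0.07 (adjusted p 0.932). *Mcm3* footprints were 3.37, 8.34 and 7.22 CPM in B6J, 9.01, 9.14 and 9.84 CPM in B6J.*Gtpbp1*-/- and 7.96, 8.17 and 8.85 CPM in B6J-*Gtpbp2*-/-. B6J replicate 1 was low, and *Mcm3* did not pass (0.56, adjusted p 0.558, in B6J.*Gtpbp1*-/-). *Mcm5* footprints were 8.76, 18.7 and 12.8 CPM in B6J, 21.02, 13.5 and 19.5 CPM in B6J.*Gtpbp1*-/- and 16.1, 15.8 and 10.97 CPM in B6J-*Gtpbp2*-/-, and overlapped.

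*Tyms*, *Ccna2*, *Cenpe* and *Foxm1*, which rose in B6J.*Gtpbp1*-/- RNA, had few footprints. *Tyms* was at 2.25, 1.32 and 1.44 footprint CPM in B6J, 3.43, 2.86 and 3.39 CPM in B6J.*Gtpbp1*-/- and 2.03, 2.72 and 1.83 CPM in B6J-*Gtpbp2*-/-. *Ccna2* was at 0.899, 1.54 and 1.76 footprint CPM in B6J, 3.00, 2.74 and 1.87 CPM in B6J.*Gtpbp1*-/- and 2.65, 2.18 and 0.385 CPM in B6J-*Gtpbp2*-/-. For *Tyms* and *Ccna2* the B6J.*Gtpbp1*-/- libraries were above B6J and the B6J-*Gtpbp2*-/- libraries overlapped it. *Cenpe* was at 1.12, 3.29 and 1.28 footprint CPM in B6J, 2.72, 2.17 and 0.678 CPM in B6J.*Gtpbp1*-/- and 4.06, 1.63 and 1.25 CPM in B6J-*Gtpbp2*-/-. *Foxm1* was at 0.899, 1.76 and 0.641 footprint CPM in B6J, 1.00, 0.79997 and 1.02 CPM in B6J.*Gtpbp1*-/- and 0.156, 1.09 and 0.0962 CPM in B6J-*Gtpbp2*-/-. Neither *Cenpe* nor *Foxm1* separated the genotypes in footprints, and none of these 4 genes passed. *Pcna* was at 32.4, 27.2 and 43.8 footprint CPM in B6J, 58.2, 52.2 and 42.7 CPM in B6J.*Gtpbp1*-/- and 38.2, 47.1 and 46.4 CPM in B6J-*Gtpbp2*-/-. *Ccnd1* was at 18.4, 23.0 and 43.9 footprint CPM in B6J, 40.0, 37.4 and 37.1 CPM in B6J.*Gtpbp1*-/- and 37.0, 38.7 and 20.8 CPM in B6J-*Gtpbp2*-/-. B6J replicate 3 was the highest control for *Pcna* and *Ccnd1* and overlapped the mutants in both.

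Some mitotic genes had footprint counts near 0 in 1 or more B6J libraries. *Mki67* had 8, 0 and 12 footprints in B6J, 56, 44 and 17 footprints in B6J.*Gtpbp1*-/- and 15, 15 and 14 in B6J-*Gtpbp2*-/-. *Top2a* had 4, 0 and 18 footprints in B6J, 57, 63 and 17 footprints in B6J.*Gtpbp1*-/- and 15, 24 and 11 in B6J-*Gtpbp2*-/-. Replicates 1 and 2 of B6J.*Gtpbp1*-/- carried most of these footprints, and B6J replicate 2 had none. After scaling, *Mki67* was at 1.80, 0 and 1.92 CPM in B6J, 8.01, 5.03 and 2.88 CPM in B6J.*Gtpbp1*-/- and 2.34, 4.09 and 1.35 CPM in B6J-*Gtpbp2*-/-. *Top2a* was at 0.899, 0 and 2.89 CPM in B6J, 8.15, 7.20 and 2.88 CPM in B6J.*Gtpbp1*-/- and 2.34, 6.54 and 1.06 CPM in B6J-*Gtpbp2*-/-. Neither passed, with log2 differences in B6J.*Gtpbp1*-/- of 2.06 for *Mki67* (adjusted p 0.215) and 2.17 for *Top2a* (adjusted p 0.217). The E2 enzyme of the anaphase-promoting complex, *Ube2c*, had 1, 0 and 6 footprints in B6J, 28, 30 and 12 footprints in B6J.*Gtpbp1*-/- and 6, 9 and 4 in B6J-*Gtpbp2*-/-, with a log2 difference of 2.80 in B6J.*Gtpbp1*-/- (adjusted p 0.131). *Ccnb1* had no footprints in B6J, 5, 4 and 0 footprints in B6J.*Gtpbp1*-/- and 3, 2 and 2 in B6J-*Gtpbp2*-/-, too few for a ratio. *Plk1* (1, 0 and 2) and *Birc5* (0, 0 and 3) had 3 B6J footprints each over the 3 libraries, and no ratio is given for them.

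**Figure D4:**
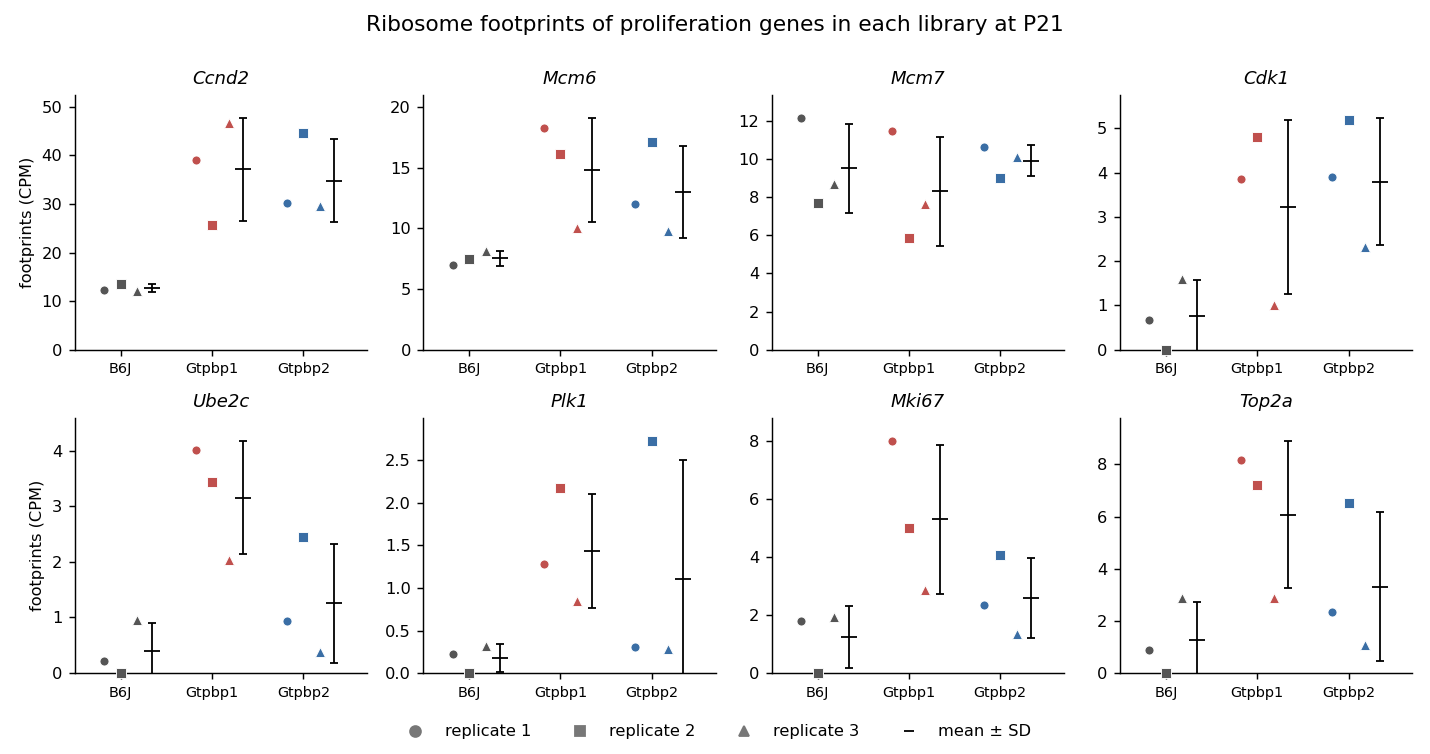
Footprint level (CPM after TMM scaling) of members in each of the 9 footprint libraries, grouped by genotype, with the mean beside the points and the SD as bars that end at 0 where they would go below it. *Ccnd2* lay at 12.2 to 13.6 CPM in B6J and at 25.7 to 46.6 CPM in the mutants, and *Mki67* and *Top2a* were at 0 in B6J replicate 2.

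In B6J-*Gtpbp2*-/- footprints, *Ccnd2* was again the gene that rose. Members of the replication role were mostly on the higher side by small differences, and members of G2 and mitosis by larger ones on few counts. Only 31 members had enough counts (*Ccnb1*, *Foxm1*, *Plk1*, *Aurkb* and *Birc5* did not), and 1 passed, as higher, against 2.94% of the 13797 genes tested that passed in either direction and 1.28% as higher. An unadjusted p under 0.05 was found for 2355 of all genes tested and for 4 of the 31 members, no larger a share, namely *Ccnd2*, *Mcm6*, *Cdk1* (log2 difference 2.16, adjusted p 0.160) and *Bub1b* (1.28, adjusted p 0.228). The median over the 31 was 0.37 against 0.01 for all genes tested, and 24 were positive. The genotypes did not overlap for 5 of all 36 members, all higher, of which *Ccnb1* was not among the 31, having 0 footprints in B6J, beside 1421 higher and 1689 lower of all genes tested. With sex as a covariate 0 members passed, in a fit in which 45 of 13797 genes passed. All libraries of this mutant were female, and B6J replicate 3 was the only female B6J footprint library. The genotype difference in that fit thus rests on that B6J library, and the fit cannot show whether sex matters.

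In the direct test between the mutants, 0 of 35 members passed in footprints by edgeR's quasi-likelihood test and 0 by DESeq2, and 3 were under 0.05 before adjustment. Of the 14142 genes tested, 0% passed by edgeR's test (0 genes, with 1523 at an unadjusted p under 0.05 and 100 past the threshold by DESeq2). Those 3 members were *Ube2c* (log2 ratio of B6J.*Gtpbp1*-/- to B6J-*Gtpbp2*-/- 1.54, adjusted p 0.42), *Mki67* (1.13, adjusted p 0.457) and *Bub1b* (-1.05, adjusted p 0.411). *Ccnd2* had a ratio of 0.09 (adjusted p 0.926), and the members' median was 0.23 against 0.00 for all genes tested.

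Translation efficiency compares the change in footprints with the change in RNA, as an interaction of assay and genotype. *Ccnd2* rose in both assays, and its efficiency was not shown to differ (log2 difference -0.44, adjusted p 0.734, in B6J.*Gtpbp1*-/- and -0.48, adjusted p 0.558, in B6J-*Gtpbp2*-/-). *Mcm7*, which rose in RNA and not in footprints, had an unadjusted p under 0.05 in both mutants without passing (-0.75, adjusted p 0.534, and -0.53, adjusted p 0.416). In B6J.*Gtpbp1*-/- 29 members could be tested and 0 passed by edgeR's quasi-likelihood test, with 3 at that unadjusted level (*Mcm7*, *Ube2c* and *Tpx2*) and 0 by DESeq2, beside 0% of the 13086 genes tested (58 by DESeq2). For B6J-*Gtpbp2*-/- 25 members could be tested and 0 passed by that test, with 1 at an unadjusted p under 0.05 (*Mcm7*) and 0 by DESeq2, beside 0.00773% of the 12931 genes tested (160 by DESeq2). The members' medians were 0.14 and -0.06, against 0.03 and 0.03 for all genes tested. Without B6J replicate 3 of the footprints, 1 member passed in B6J.*Gtpbp1*-/-, *Ccnd1*, in a fit in which 174 of 12989 genes passed.

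Other genes of the cycle passed in both directions. Of all genes tested, 13.8% passed in either direction in B6J.*Gtpbp1*-/- RNA and 8.63% in B6J-*Gtpbp2*-/- RNA. The shares that passed as higher were 5.90% and 3.61%. Counts of these and of the later lists were not tested against these shares. Positive log2 differences in B6J.*Gtpbp1*-/- RNA were found for 27 of 39 further replication genes, 34 of 48 further mitosis genes and 5 of 13 further control genes. Of the replication genes, 2 rose in B6J.*Gtpbp1*-/- RNA, the primase gene *Prim2* (0.49) and the clamp loader gene *Rfc4* (0.67), and 1 fell, the flap nuclease gene *Fen1* (-0.50), with a median of 0.09. Of these 39, 0 passed in B6J-*Gtpbp2*-/- RNA by edgeR's quasi-likelihood test, with 9 at an unadjusted p under 0.05, 5 past the threshold by DESeq2 and a median of 0.12. Of the mitosis genes, 5 rose in B6J.*Gtpbp1*-/-, namely *Kif23* (1.93) and *Ckap2* (1.33) of the spindle, *Knl1* (1.62) and *Spc25* (1.51) of the kinetochore and the condensin gene *Smc4* (0.43), while *Kif22* (-0.83) and the condensin gene *Ncapd2* (-0.42) fell. *Kif23* rose (1.91) and *Kif22* fell (-0.81) in B6J-*Gtpbp2*-/- as well, and the medians over this list were 0.32 and 0.34. Of the control genes, *Tfdp1*, the partner of E2F factors, rose in B6J.*Gtpbp1*-/- (0.44), whereas *E2f3* (-0.70 and -0.55) and the phosphatase gene *Cdc25b* (-0.71 and -0.70) fell in both mutants. Of these 2 that fell, 1 was left in B6J.*Gtpbp1*-/- without its replicate 2 or 3 or B6J replicate 1, and 1 in B6J-*Gtpbp2*-/- without any one library but its replicate 1. In footprints 0 genes of these 3 lists passed in either mutant by edgeR's quasi-likelihood test, with 1, 2 and 3 genes at an unadjusted p under 0.05 in B6J.*Gtpbp1*-/- and 1, 5 and 1 in B6J-*Gtpbp2*-/-. The 3 replication genes that passed in B6J.*Gtpbp1*-/- RNA were 0 without its replicate 2 or 3 or B6J replicate 1, 1 without its replicate 1 and 7 without B6J replicate 3. The 7 mitosis genes were 2 without B6J.*Gtpbp1*-/- replicate 2 and 4 without its replicate 3, and the 2 in B6J-*Gtpbp2*-/- were 5 without its replicate 1, 1 without its replicate 2 or 3 and 0 without B6J replicate 1 or 2. By DESeq2, 1 mitosis gene passed in B6J.*Gtpbp1*-/- footprints and 0 genes of the 3 lists in B6J-*Gtpbp2*-/- footprints.

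Some genes that hold cells out of the cycle rose as well, and others fell. The list of 20 inhibitors had 19 genes with enough RNA counts, all but *Cdkn2a*, and 6 of them in B6J.*Gtpbp1*-/- and 7 in B6J-*Gtpbp2*-/- had positive log2 differences, with medians of -0.06 and -0.07. In footprints 10 of 19 were positive in each mutant, with medians of 0.01 and 0.05. Summed RNA of the inhibitors was 592, 610 and 630 TPM in B6J, 735, 753 and 831 TPM in B6J.*Gtpbp1*-/- and 730, 806 and 739 TPM in B6J-*Gtpbp2*-/-, higher in every mutant library, with *Cdkn1b* the most abundant. *Cdkn1a*, for the CDK inhibitor p21, rose by 1.87 in B6J.*Gtpbp1*-/- RNA (adjusted p 0.000214) and by 1.69 in B6J-*Gtpbp2*-/- RNA (adjusted p 0.00146). *Cdkn1b*, for the CDK inhibitor p27 of granule neurons, rose by 0.59 and 0.53, and *Lin54*, for the DNA-binding subunit of the complex that holds CHR genes silent, by 0.65 and 0.57. *Cdkn2d* fell in both mutants (-0.48 and -0.44) and *Btg1* in B6J.*Gtpbp1*-/- (-0.52), so that 3 rose and 2 fell in that mutant and 3 rose and 1 fell in B6J-*Gtpbp2*-/-. That last count of 4 was 2 without B6J-*Gtpbp2*-/- replicate 2 or 3 or without any one B6J library. In B6J-*Gtpbp2*-/- footprints *Cdkn1a* rose by 1.95 (adjusted p 0.00877) and *Btg1* fell by 1.12 on the log2 scale (adjusted p 0.00291). In B6J.*Gtpbp1*-/- footprints 0 of 19 passed by edgeR's quasi-likelihood test, with 3 at an unadjusted p under 0.05. Genes that drive division and a few genes that inhibit it were thus both among those that rose.

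Markers of granule cell precursors did not rise with the members. Of 11 such markers, 10 could be tested in RNA, and 1 rose and 1 fell in B6J.*Gtpbp1*-/- (*Rassf4* 0.63, *Boc* -0.70), while 1 rose and 2 fell in B6J-*Gtpbp2*-/- (*Rassf4* 0.88, *Boc* -0.63, *Gli1* -0.44). Their summed RNA was 138, 156 and 139 TPM in B6J, 128, 130 and 147 TPM in B6J.*Gtpbp1*-/- and 140, 134 and 125 TPM in B6J-*Gtpbp2*-/-, with *Ptch1* the most abundant. These sums overlapped, whereas as CPM they were 446, 533 and 451 in B6J, 383, 391 and 444 in B6J.*Gtpbp1*-/- and 404, 402 and 386 in B6J-*Gtpbp2*-/-, lower in every mutant library. *Rassf4* no longer passed in B6J.*Gtpbp1*-/- without its replicate 1 or 2 or B6J replicate 1 or 2, nor in B6J-*Gtpbp2*-/- without its replicate 3 or B6J replicate 1 or 2. *Atoh1*, the defining transcription factor of these precursors, had 0 footprints in all 9 libraries. Of 10 markers of immature neurons, 1 rose and 3 fell in each mutant. *Sox11* rose in both (0.96 and 1.11), and *Stmn2* (-0.74 and -0.62) and *Neurod1* (-0.71 and -0.65) fell in both. Their sum was 1224, 1359 and 1504 TPM in B6J, 976, 987 and 971 TPM in B6J.*Gtpbp1*-/- and 1125, 984 and 999.8 TPM in B6J-*Gtpbp2*-/-, lower in every mutant library, with *Stmn2* the most abundant, although 5 of the 10 had positive log2 differences in each mutant, with medians of 0.06 and 0.14. Of 8 markers of mature granule neurons, 1 rose and 6 fell in each mutant, the receptor gene *Gabra6* (-1.08 and -1.02) among those that fell, and the most abundant, *Calb2*, was the one that rose (0.54 and 0.55), though not in B6J-*Gtpbp2*-/- without its replicate 2 or B6J replicate 1 or 2. That sum was 3638, 3735 and 3751 TPM in B6J, 3128, 2971 and 3339 TPM in B6J.*Gtpbp1*-/- and 3114, 3445 and 2912 TPM in B6J-*Gtpbp2*-/-, again lower in every mutant library.

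Markers of some other cell types, microglia and vessels among them, moved with the members. Of 8 microglia markers, 6 rose in B6J.*Gtpbp1*-/- RNA and 5 in B6J-*Gtpbp2*-/- RNA, with *C1qa* at 1.37 and 1.32. Their sum was 134, 129 and 152 TPM in B6J, 323, 286 and 294 TPM in B6J.*Gtpbp1*-/- and 266, 297 and 304 TPM in B6J-*Gtpbp2*-/-. Of 8 endothelial and mural markers, 6 and 3 rose, *Cldn5* by 0.59 and 0.74, and the sum was 154, 155 and 164 TPM in B6J, 218, 272 and 277 TPM in B6J.*Gtpbp1*-/- and 186, 313 and 324 TPM in B6J-*Gtpbp2*-/-, with *Rgs5* the most abundant. All 8 were positive in each mutant, but the 6 that rose were 3 without B6J.*Gtpbp1*-/- replicate 3, and the 3 that rose in B6J-*Gtpbp2*-/- were 8 without its replicate 1 and 1 without its replicate 2 or 3 or B6J replicate 1 or 2. By TPM both sums separated the mutants from B6J, while by CPM the endothelial and mural sum of B6J-*Gtpbp2*-/- replicate 1 (331.5) lay within the B6J range (316.7 to 333.3). The endothelial and mural sum was lowest in replicate 1 of each mutant, the replicates with the fewest members above B6J. This was not particular to vessels, since the TPM sums of bone markers and of the cell cycle inhibitors were also lowest in those replicates. The microglia sum did not follow this in both mutants. Replicate 1 had the highest microglia sum of B6J.*Gtpbp1*-/- (323 TPM) and the lowest of B6J-*Gtpbp2*-/- (266 TPM). Of 18 blood and marrow markers, 3 rose in B6J.*Gtpbp1*-/-, among them *Ptprc* (1.07) and *Alas2* (0.92), and 0 passed in B6J-*Gtpbp2*-/- by edgeR's quasi-likelihood test (2 at an unadjusted p under 0.05, 1 by DESeq2), with 16 tested. That sum, with *Hbb-bs* the most abundant, was 5892, 3310 and 4501 TPM in B6J, 8210, 7174 and 9233 TPM in B6J.*Gtpbp1*-/- and 1515, 7165 and 4029 TPM in B6J-*Gtpbp2*-/-. Of 10 bone markers, *Spp1* (1.51), the most abundant, rose and *Dmp1* (-0.71) fell in B6J.*Gtpbp1*-/-, and *Dmp1* fell in B6J-*Gtpbp2*-/-, with sums of 83.7, 73.1 and 74.8 TPM in B6J, 120, 177 and 192 TPM in B6J.*Gtpbp1*-/- and 83.5, 245 and 182 TPM in B6J-*Gtpbp2*-/-. *Dmp1* no longer passed in B6J.*Gtpbp1*-/- without its replicate 1 or 3 or B6J replicate 1 or 2, nor in B6J-*Gtpbp2*-/- without its replicate 2 or 3 or B6J replicate 1 or 2. Of 10 oligodendrocyte precursor markers, *Enpp6* fell in B6J.*Gtpbp1*-/- (-0.37) and *Cspg4* rose in B6J-*Gtpbp2*-/- (0.70), with sums of 210, 210 and 217 TPM in B6J, 222, 226 and 207 TPM in B6J.*Gtpbp1*-/- and 291, 230 and 227 TPM in B6J-*Gtpbp2*-/- and *Olig1* the most abundant. The *Cspg4* call ended when any one library was left out, and the *Enpp6* call without B6J.*Gtpbp1*-/- replicate 2 or 3 or B6J replicate 1 or 3. Of 8 markers of meninges and choroid plexus, *Col3a1* rose in B6J.*Gtpbp1*-/- (0.45) and 0 passed in B6J-*Gtpbp2*-/- by edgeR's quasi-likelihood test (0 at an unadjusted p under 0.05, 0 by DESeq2), with sums of 5490, 4452 and 1962 TPM in B6J, 6975, 5246 and 3179 TPM in B6J.*Gtpbp1*-/- and 1864, 4394 and 3599 TPM in B6J-*Gtpbp2*-/- and *Ptgds* the most abundant. The *Col3a1* call ended without B6J.*Gtpbp1*-/- replicate 2. Footprints of these lists differed between libraries of one genotype as well. *C1qa* (1.504) and *C1qb* (1.75) of microglia and *Cldn5* (1.42) of endothelium rose in B6J.*Gtpbp1*-/- footprints, and 2 microglia and 4 endothelial and mural markers rose in B6J-*Gtpbp2*-/-. When single libraries were left out, these counts ran from 0 to 4 (microglia) and 0 to 3 (endothelial and mural) in B6J.*Gtpbp1*-/- and from 1 to 2 and 1 to 6 in B6J-*Gtpbp2*-/-. Summed footprints were 291, 328 and 287 CPM in B6J, 819, 445 and 755 CPM in B6J.*Gtpbp1*-/- and 449, 398 and 591 CPM in B6J-*Gtpbp2*-/- for microglia, all mutants above B6J. Bone markers summed to 377, 751 and 1017 CPM of footprints in B6J and 1739, 1606 and 2815 CPM in B6J.*Gtpbp1*-/-, without overlap, and 0 of 9 passed, with 5 at an unadjusted p under 0.05. All 15 blood and marrow markers tested were positive in B6J.*Gtpbp1*-/- footprints, with a median of 1.12, and 0 passed, with 8 at that unadjusted level. In B6J-*Gtpbp2*-/- footprints 0 of either list had an unadjusted p under 0.05, with medians of -0.31 (bone) and 0.82 (blood and marrow). Meninges and choroid markers summed to 7648, 7491 and 1994 CPM of footprints in B6J, 17821, 2583 and 17860 CPM in B6J.*Gtpbp1*-/- and 2221, 12038 and 14464 CPM in B6J-*Gtpbp2*-/-, low in 1 library of each genotype. None of the markers of these cell types was at 0 in all RNA libraries, and their part in the result for the proliferation genes was not tested.

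Promoter letters of the members were counted by role. CHR letters were mostly in the roles of mitosis, while CCAAT letters were common in the roles of replication and mitosis. Only 2 G1 genes had a promoter to look up, too few to describe that role. Promoters of 300 bases, 250 before and 50 after the start of transcription, were taken from RefSeq on build GRCm38.p6, and 27 of 36 members matched, with *Ccnd2*, *Ccnd1*, *Ccne2*, *Mcm4*, *Ccna2*, *Foxm1*, *Aurkb*, *Kif20a* and *Tpx2* missing. E2F letters (TTTCCCGC, TTTCGCGC, TTTGCCGC or TTTGGCGC, on either strand) were found in 5 of 27 members (18.5%) and in 2.26% of all 32851 promoters, or 2.6% of the 27025 genes these belong to. Those members were *Mcm3*, *Mcm5*, *Mcm6* and *Mcm7*, the MCM genes that rose in B6J.*Gtpbp1*-/- RNA, and *Cdk1*. CHR letters (TTTGAA, on either strand) were found in 12 of 27 members (44.4%) and in 17.9% of all promoters (20.2% of genes), in 7 of 9 regulators of G2 and mitosis, 4 of 7 chromosome and spindle genes, 1 of 9 replication genes and 0 of 2 G1 genes. CCAAT, on either strand, was found in 22 of 27 members (81.5%) and 37.4% of all promoters (41.1% of genes). By role it was in 8 of 9 replication genes, 9 of 9 regulators, 5 of 7 chromosome and spindle genes and 0 of 2 G1 genes. Both CHR and CCAAT letters were found in 12 of 27 members and 6.95% of all promoters (7.97% of genes). Members were counted as genes. A match describes the letters alone.

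The stretches with E2F letters are printed below for the helicase genes that rose in B6J.*Gtpbp1*-/- RNA, genes picked for that result. Of these, *Mcm5* and *Mcm6* did not pass in B6J-*Gtpbp2*-/-. *Tyms* also rose in B6J.*Gtpbp1*-/-, and its matched promoter has no E2F, CHR or CCAAT letters. Each stretch has 12 bases on either side where the promoter window reaches that far, which it does not after the second match of *Mcm3*. Stretches run 5′ to 3′ on the strand of the gene, with the matched letters in capitals. *Mcm5* and the first stretch of *Mcm6* hold a pair of overlapping matches on opposite strands.
Mcm3, chr1:20820263-20820305, minus strand: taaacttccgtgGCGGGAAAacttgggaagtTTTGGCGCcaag
Mcm5, chr8:75109344-75109379, plus strand: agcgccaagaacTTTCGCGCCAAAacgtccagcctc
Mcm6, chr1:128359792-128359827, minus strand: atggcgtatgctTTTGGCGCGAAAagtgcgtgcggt
Mcm6, chr1:128359733-128359764, minus strand: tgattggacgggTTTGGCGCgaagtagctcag
Mcm7, chr5:138172029-138172060, minus strand: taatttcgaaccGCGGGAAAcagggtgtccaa
Mcm7, chr5:138171848-138171879, minus strand: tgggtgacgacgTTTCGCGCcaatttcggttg

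These 4 mitotic members were picked from the 12 with CHR letters, and the letters do not sort members by result. *Cenpe*, which passed in RNA of both mutants, has neither E2F nor CHR letters, and *Cdk1*, which has both, did not pass. All stretches with CHR letters are shown for 4 mitotic members whose RNA or footprints were on the higher side without passing, in the same form as the E2F stretches.
Mki67, chr7:135716460-135716507, minus strand: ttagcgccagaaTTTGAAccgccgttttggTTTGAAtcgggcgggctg
Top2a, chr11:99024351-99024380, minus strand: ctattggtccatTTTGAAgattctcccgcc
Top2a, chr11:99024195-99024224, minus strand: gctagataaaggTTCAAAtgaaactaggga
Plk1, chr7:122159453-122159482, plus strand: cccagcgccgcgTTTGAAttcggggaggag
Ube2c, chr2:164769888-164769917, plus strand: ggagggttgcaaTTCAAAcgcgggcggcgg

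The members are spread over 16 chromosomes, with at most 8 on one, chromosome 2. Several share exon bases with a neighbouring gene, and the kit named for the RNA libraries, TruSeq v2, does not mark strand, so that reads on those bases are uncertain. *Mcm7* shares 64 exon bases with *Cops6* and 321 with *Ap4m1*, whose log2 differences in B6J.*Gtpbp1*-/- RNA were -0.19 and -0.06. *Ccna2* shares 510 of 4083 exon bases with *Exosc9* (0.26, adjusted p 0.167), and *Foxm1* 144 of 5754 with *Tex52* (-0.14). None of these 4 neighbours rose with the member it overlaps. Members that did not pass in RNA share exon bases as well. *Ccnd1* shares 1100 of 4709 with *LTO1*, *Ccne2* 609 of 3495 with *Ints8*, *Kif20a* 1271 of 4338 with *Cdc23* and *Ube2c* 592 of 2600 with *Tnnc2*. The RNA levels of these members carry the same limit.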

How the data were processed

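RNA and ribosome footprints of 3 genotypes were compared, each with 3 mice per assay. For RNA the authors ran kallisto 0.42.4 on reads against GENCODE transcripts and deposited an estimated count, which is not normalized, and a TPM, which is scaled for transcript length, per transcript; both were summed here per gene. For footprints the authors deposited a count per gene on coding sequence, per their notes after Bowtie2 2.2.3, HISAT2 2.1.0 and featureCounts. Depth was 37794598 to 52114400 estimated counts per RNA library and 3630823 to 10442573 footprints per footprint library, so that counting error is large for members with few footprints. A gene was fitted when 3 of 6 libraries held 5 or more counts, with edgeR 4.0.16 (robust quasi-likelihood, TMM; limma 3.58.1, R 4.3.3), and p-values were adjusted by Benjamini-Hochberg over all genes tested. Translation efficiency was the interaction of assay and genotype over 12 libraries, for genes with 10 or more counts in 3 of 6 libraries of each assay, histone genes left out. Checks on simulated data were run. Tables and figures were made with Python 3.11.15, numpy 2.4.6, pandas 2.3.3 and matplotlib 3.10.9.

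All members could be named. Values per library were given for members past the threshold in a comparison with B6J and for *Mki67*, *Top2a*, *Ccnd1*, *Ccnd2* and *Pcna*. From the other lists (further replication, mitosis and control genes, cell cycle inhibitors, and markers of granule cell precursors, immature neurons, mature granule neurons, Purkinje cells, oligodendrocyte precursors, oligodendrocytes, astroglia, microglia, endothelial and mural cells, bone, skeletal muscle, blood and marrow, and meninges with choroid plexus) genes past the threshold could be named, at most 6 per direction, with the most abundant marker of each cell type. Values of some single marker genes are not reported here. Members and lists were chosen with earlier results of these data known. Alternatives were DESeq2 1.42.0, upper-quartile scaling, no filter, edgeR's filterByExpr filter, all libraries in one model, replicate number as a block, sex as a covariate, an offset for effective length, coding transcripts alone, leaving out each library, and one setting added after seeing the data. Sums of RNA CPM and shares of all genes above B6J were added late as well, and are descriptions without a test.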

Additional observations from a re-analysis of the deposited data

How the results depend on the processing

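No member changed direction past the threshold under any alternative: of the member-level results, 3805 kept their side of the threshold, 28 passed newly and 67 no longer passed. Most of the 3805 passed neither in the fits reported above nor in the alternative, so they say little about how stable the calls were. The 67 came only from members that passed above, whose counts of alternatives are given gene by gene. In B6J.*Gtpbp1*-/- RNA the count of members past the threshold, 9, was 2 without the B6J libraries with the fewest genes detected (chosen after seeing the data) and 3 to 10 when single libraries were left out. For B6J-*Gtpbp2*-/- RNA the count, 5, was 8 by DESeq2, 2 with sex as a covariate, 1 without those B6J libraries and 2 to 8 when single libraries were left out. In B6J.*Gtpbp1*-/- footprints the count, 1, was 2 by DESeq2, 0 with the replicate block and 0 to 1 when single libraries were left out. For B6J-*Gtpbp2*-/- footprints it was 0 with sex as a covariate. In the sex fits of this mutant, the sex term stood for B6J replicate 2 alone in RNA. In footprints those fits left only B6J replicate 3 to compare with the mutant, so neither fit separates sex from single B6J libraries. For translation efficiency in B6J.*Gtpbp1*-/-, 0 to 1 members passed when single libraries were left out. With fewer libraries the tests have less power, and otherwise the cause was not tested.

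In RNA, *Mcm6* passed in 16 of 16 alternatives in B6J.*Gtpbp1*-/-, *Mcm7* in 15, *Cenpe* in 14, *Mcm3* in 12, *Ccna2* in 11, *Mcm5* and *Foxm1* in 7 and *Tyms* in 6. In B6J-*Gtpbp2*-/- *Mcm7* passed in 15, *Cenpe* in 11 and *Mcm3* and *Ccna2* in 8. *Ccnd2* footprints passed in 9 of 13 alternatives in B6J.*Gtpbp1*-/- and 12 of 13 in B6J-*Gtpbp2*-/-. Counts of other lists in RNA, when single libraries were left out, ran from 0 to 7 for further replication genes, 2 to 7 for mitosis genes, 3 to 5 for endothelial and mural markers and 2 to 5 for oligodendrocyte markers in B6J.*Gtpbp1*-/-, against 3, 7, 6 and 6 with all libraries. In B6J-*Gtpbp2*-/- they ran from 0 to 5 for mitosis genes, 2 to 5 for inhibitors and 1 to 8 for endothelial and mural markers, against 2, 4 and 3. The count of microglia markers that passed ran from 5 to 7 in each mutant, against 6 and 5.

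Scaling set the balance over all genes: by TMM 1449 genes were higher and 1949 lower in B6J.*Gtpbp1*-/- RNA, and by upper-quartile scaling 1837 and 1512, with 898 and 1248 against 1074 and 941 in B6J-*Gtpbp2*-/-. Correlations of same-numbered libraries after removing group means ran from -0.339 (footprints of B6J.*Gtpbp1*-/- and B6J) to 0.27 (RNA of the mutants), and a library was closest to its own number in 0 to 2 of 3 cases, so that the numbers are not shown to pair mice.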

Other observations

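Glia, Purkinje cells and muscle were also measured through marker lists. Of 6 Purkinje markers, 0 rose and 2 fell in B6J.*Gtpbp1*-/- RNA and 4 fell in B6J-*Gtpbp2*-/- RNA (0 to 4 and 1 to 5 when single libraries were left out), with sums of 5659, 5931 and 4852 TPM in B6J, 5592, 4659 and 5996 TPM in B6J.*Gtpbp1*-/- and 4669, 5011 and 4131 TPM in B6J-*Gtpbp2*-/- and *Pcp2* the most abundant. Of 7 markers of mature oligodendrocytes, 6 fell in B6J.*Gtpbp1*-/- (2 without B6J replicate 1 and 3 without B6J.*Gtpbp1*-/- replicate 2 or 3), where the sums were 7662, 7781 and 6688 TPM against 9429, 8120 and 9340 TPM in B6J. For B6J-*Gtpbp2*-/- 0 of the 7 passed by edgeR's quasi-likelihood test (0 at an unadjusted p under 0.05, 0 by DESeq2), with sums of 11092, 8368 and 9105 TPM, and *Mbp* was the most abundant. Of 8 astroglia markers, *Gfap* rose in both mutants (1.35 and 1.22), while 3 fell in B6J.*Gtpbp1*-/- (1 without B6J replicate 2) and 4 in B6J-*Gtpbp2*-/- (2 without its replicate 2 and 1 without its replicate 3 or B6J replicate 1 or 2), with sums of 1973, 1997 and 1708 TPM in B6J, 1942, 1769 and 1941 TPM in B6J.*Gtpbp1*-/- and 1625, 1936 and 1699 TPM in B6J-*Gtpbp2*-/- and *Slc1a3* the most abundant. Of 9 skeletal muscle markers, 7 had enough RNA counts and 0 passed in either mutant by edgeR's quasi-likelihood test (0 at an unadjusted p under 0.05, 0 by DESeq2), with sums of 15.6, 10.8 and 7.29 TPM in B6J, 13.3, 9.39 and 12.8 TPM in B6J.*Gtpbp1*-/- and 7.86, 12.8 and 8.37 TPM in B6J-*Gtpbp2*-/- and *Mylpf* the most abundant. In footprints 0 markers of these lists passed against B6J by that test. All 6 Purkinje markers were positive there in both mutants (medians 0.11 and 0.52), as were 5 and 7 of 7 oligodendrocyte and 7 and 4 of 8 astroglia markers. Of 9 skeletal muscle markers 8 were positive in B6J.*Gtpbp1*-/- footprints (median 1.27, 3 at an unadjusted p under 0.05), and 0 of 2 tested in B6J-*Gtpbp2*-/-.

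*Ccnd2* has a short processed transcript, Ccnd2-203, of 127 bases, which was at 9.83 TPM in B6J.*Gtpbp1*-/- replicate 3, at 2.02 TPM in B6J-*Gtpbp2*-/- replicate 2 and at 0 TPM in the other 7 RNA libraries. The coding share of *Ccnd2* TPM was 71.1% in B6J.*Gtpbp1*-/- replicate 3 and at least 88.9% in the other 8 libraries.

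Same-numbered RNA and footprint libraries differed in sex by *Ddx3y* for B6J replicate 1 and B6J.*Gtpbp1*-/- replicate 2.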
